A study of Mus musculus with 4 samples.

Results

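Arg1 Cxcl3 macrophages were described in 4 droplet libraries of cells sorted from mouse tumours. A cell barcode belonged to them when it held at least 3 UMIs (unique molecular identifiers, each standing for 1 captured transcript) of Arg1, at least 3 UMIs of Cxcl3, Cxcl1 and Thbs1 summed, 0 UMIs of Nos2 and 0 UMIs of the T cell receptor complex genes Cd3e, Cd3d and Cd3g. It also had to hold at least 500 genes and at most 10% mitochondrial UMIs. Of 30053 deposited barcodes, 23294 met the limits on genes and mitochondrial UMIs and are called kept here, and 511 of these (2.19%) were Arg1 Cxcl3 macrophages, called members below. The members were chosen by their own transcripts, so the levels of the rule's genes, and all other genes of these barcodes, are given as descriptions with no test.

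The 4 groups were wild-type C57/bl6 mice carrying TC-1 tumours (300000 cells injected under the skin), TC-1 being a transformed line of lung epithelium from mice. All received 1 intraperitoneal treatment when the tumour reached 40 mm², either PBS or cisplatin at 6 mg/kg, a platinum drug that crosslinks DNA, and the cisplatin tumours were taken 1, 3 or 7 days later. Each group is 1 library. The labels give neither the day of the PBS tumours, whose source one label calls untreated, nor the number of mice in a library, and they call the sorted CD45+ lin- CD90+ CD127+ cells innate lymphoid cells. With 1 library per group there is no replicate check, so no p-value is given, every interval covers counting error only, and treatment, day, sort and library preparation cannot be told apart.

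Arginase 1, the product of Arg1, splits arginine into ornithine and urea, and tumour macrophages that make it are known for drawing down the arginine that T cells need. Arginase competes for that substrate with inducible nitric oxide synthase, the product of Nos2. Cxcl1, Cxcl2 and Cxcl3 encode chemokines that bind CXCR2 and draw neutrophils, and Thbs1 encodes thrombospondin-1, a secreted matrix protein that binds CD36 and CD47. Clec4e encodes Mincle, a C-type lectin that senses microbial glycolipids and dead cells.

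The promoters of the CXC chemokine genes are shown because these genes lie close together on 1 chromosome and share a run of letters. In mm10, Cxcl3 spans 90786103 to 90789600, Cxcl1 90891241 to 90893115 and Cxcl2 90903871 to 90905938 on chromosome 5, all on the plus strand. The sequences are the 250 bases before each gene's annotated start in RefSeq (GRCm38.p6), at chr5:90785851-90786100, chr5:90890995-90891244 and chr5:90903649-90903898, plus strand. Capitals mark a run of 10 bases that is a form of the kappaB site, which NF-kB proteins bind, searched on both strands.
Cxcl3: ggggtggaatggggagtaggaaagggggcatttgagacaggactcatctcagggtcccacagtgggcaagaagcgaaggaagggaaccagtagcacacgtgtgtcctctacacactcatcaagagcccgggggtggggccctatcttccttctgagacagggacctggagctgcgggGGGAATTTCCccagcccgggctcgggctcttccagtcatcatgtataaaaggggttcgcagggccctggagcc
Cxcl1: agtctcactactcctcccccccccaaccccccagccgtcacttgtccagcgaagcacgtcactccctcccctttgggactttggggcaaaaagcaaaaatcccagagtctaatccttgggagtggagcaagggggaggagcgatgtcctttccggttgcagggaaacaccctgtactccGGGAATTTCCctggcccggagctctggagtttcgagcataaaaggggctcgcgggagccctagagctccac
Cxcl2: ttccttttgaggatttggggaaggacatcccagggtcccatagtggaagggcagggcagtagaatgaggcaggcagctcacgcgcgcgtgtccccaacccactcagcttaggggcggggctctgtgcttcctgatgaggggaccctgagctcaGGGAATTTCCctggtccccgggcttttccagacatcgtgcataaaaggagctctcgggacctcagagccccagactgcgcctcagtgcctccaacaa
The motif starts 73, 71 and 97 bases before the start of Cxcl3, Cxcl1 and Cxcl2. Of the 32851 promoters of RefSeq genes searched, 28 hold it (0.0852%). The match is a description and shows no binding.

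The promoters of 3 genes that were higher in the members than in other macrophages of the same library are also printed, since these genes belong to a hypoxia and glycolysis list described further on. Hilpda encodes a lipid droplet protein that blocks fat breakdown, Bnip3 a receptor that marks mitochondria for removal, and Slc16a3 the lactate exporter MCT4. All are known targets of hypoxia-inducible factor (HIF). Capitals mark ACGTG or its reverse complement CACGT, the core letters of the HIF site, and matches may overlap. The positions are chr6:29272376-29272625 (plus strand), chr7:138909507-138909756 (minus strand) and chr11:120948817-120949066 (plus strand) of GRCm38.p6. Hilpda has 2 promoters in the table, and only the 1 that holds the core is printed. Its core starts 43 bases before the window's end, inside the mm10 span of Hilpda, which begins at 29272488. The whole Slc16a3 window lies inside that gene's mm10 span (120948480 to 120960868). These 2 windows thus precede 1 annotated start and not the whole gene.
Hilpda: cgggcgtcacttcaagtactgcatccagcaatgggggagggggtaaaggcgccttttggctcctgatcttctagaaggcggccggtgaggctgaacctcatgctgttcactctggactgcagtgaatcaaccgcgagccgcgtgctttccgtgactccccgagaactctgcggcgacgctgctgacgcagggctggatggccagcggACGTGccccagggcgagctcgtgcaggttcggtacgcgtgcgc
Bnip3: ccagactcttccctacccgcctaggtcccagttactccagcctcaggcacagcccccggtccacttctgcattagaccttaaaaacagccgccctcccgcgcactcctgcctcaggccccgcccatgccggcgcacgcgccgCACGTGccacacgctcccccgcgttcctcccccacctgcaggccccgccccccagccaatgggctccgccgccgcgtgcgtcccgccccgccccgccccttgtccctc
Slc16a3: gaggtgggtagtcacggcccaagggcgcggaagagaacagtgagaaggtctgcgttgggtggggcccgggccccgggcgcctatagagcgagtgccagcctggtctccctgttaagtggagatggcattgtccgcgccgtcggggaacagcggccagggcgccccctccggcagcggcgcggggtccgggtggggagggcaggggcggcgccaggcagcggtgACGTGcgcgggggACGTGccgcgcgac
The core letters are common, in 16.6% of all promoters in the table (5444 of 32851) and in 4998 of its 27025 genes. Of the 17 genes that were at least 2-fold higher in the members, 15 were matched to the table and 7 of these have a promoter with the core. Of the 18 lower genes 10 were matched and 4 have one. The kappaB run is in 0 of these 15 and 0 of these 10 genes. The 6 promoters were picked for printing after their letters were seen.

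The PBS, day 1, day 3 and day 7 libraries held 10063, 10745, 6264 and 2981 barcodes with 59915831, 82493626, 36587207 and 16153484 UMIs, and 8075, 7484, 4964 and 2771 barcodes were kept. Pairs of libraries shared between 4 and 32 barcode sequences, and no shared sequence was a member in both. Members had a median of 7365, 10215, 7387 and 6786 UMIs, against 6450, 9270, 6555 and 5295 UMIs in other macrophages. Their median mitochondrial share was 2.20%, 2.56%, 1.62% and 1.33%, against 2.93%, 3.24%, 2.29% and 1.85%. The rule asks for counts of several genes, and members were the deeper set in all 4 libraries. Other macrophages are the kept barcodes that are no members, hold 0 Cd3 UMIs and show at least 5 of 10 macrophage genes (among them Csf1r, Adgre1, Cd68, C1qa, Fcgr1 and Cd14), a macrophage gate that 17436 non-members passed.

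The members carried macrophage transcripts, and the name fits Arg1 and Thbs1 better than Cxcl3. Of 511 members, 508 passed the macrophage gate that the rule did not use, and all 14 genes of a wider macrophage list were found in the members of each library. The summed level of that list ran from 39592 to 62715 CPM in members (CPM, UMIs of the gene per 1000000 UMIs of the pooled barcodes) and from 35602 to 48974 CPM in other macrophages. Cxcl3 had at least 1 UMI in 110 members (21.5%) and at least 3 UMIs in 54, while Thbs1 had at least 1 UMI in 490 (95.9%) and at least 3 in 452. Cxcl1 was found in 208 members (40.7%). In 245 members the sum was met by at least 3 UMIs of Thbs1 with 0 UMIs of both chemokines, and all 3 genes were found together in 46. Most members thus met the rule through Arg1 and Thbs1 with 0 UMIs of Cxcl3, which at this depth does not show that the transcript is absent. The labels call the sorted cells innate lymphoid cells, while 17944 of the 23294 kept barcodes passed the macrophage gate.

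Many members sat at the limits of the rule. Arg1 was at exactly 3 UMIs in 108 members, and 198 barcodes that met the other conditions stopped at 2 UMIs. The sum was at exactly 3 UMIs in 47 members, and 73 barcodes stopped at 2. The median member held 6 Arg1 UMIs (highest 57) and a sum of 10. The bar on Nos2 kept out 22 barcodes, and the bar on Cd3 kept out 128, of which 102 were in the day 1 library.

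The members' Arg1 level ranged less over the 4 libraries than those of Thbs1, Cxcl1 and Cxcl3. Each member had to hold at least 3 Arg1 UMIs, so the cut and the depth bear on this level. The median member held 5, 6, 6 and 5 Arg1 UMIs in the 4 libraries. Arg1 (mm10 chromosome 10, 24915221 to 24927484, minus strand) stood at 956, 758, 1012 and 1032 CPM in members after PBS and on days 1, 3 and 7, against 30.6, 37.8, 24.0 and 36.7 CPM in other macrophages. Thbs1 (chromosome 2, 118111876 to 118127133, plus strand) stood at 647, 1049, 1202 and 919 CPM in members, against 93.2, 244, 433 and 204 CPM. Cxcl1 stood at 409.5, 292, 539 and 423 CPM in members, against 66.7, 101, 216 and 70.1 CPM. Members were above other macrophages in each library for all 3 genes, as the rule requires, and in other macrophages Thbs1 and Cxcl1 were highest on day 3. Cxcl3 stood at 110.0, 114, 95.1 and 62.7 CPM in members, against 5.09, 13.2, 27.3 and 2.10 CPM. Clec4e, a marker given with the name but not used by the rule, stood at 139.6, 208, 230.1 and 125 CPM in members, against 58.3, 87.9, 181 and 42.7 CPM. The gap of Clec4e was narrow on day 3, with a log2 ratio of 0.35 there, 1.26 after PBS and 1.24 on day 1.

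**Figure D1:**
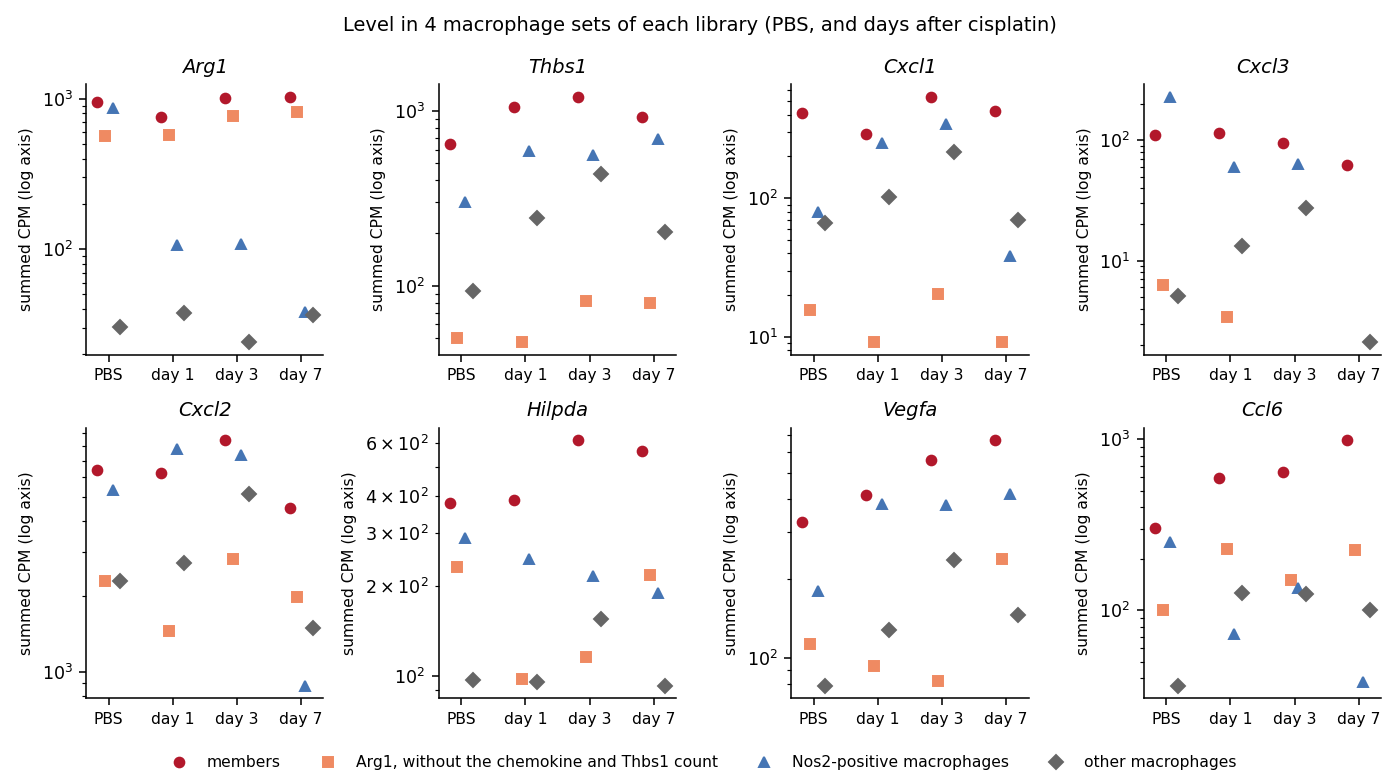
Level of 8 genes (summed CPM, log axis) in members, in barcodes with Arg1 but without the summed count of the chemokines and Thbs1, in Nos2-positive macrophages and in other macrophages of each library, 1 point per set and library. A level of 0 cannot be drawn on this axis, which leaves out Cxcl3 on day 3 and day 7 in the Arg1 set and on day 7 in the Nos2-positive set. Hilpda runs from 380.0 to 614 CPM in members and from 92.6 to 155 CPM in other macrophages, while Cxcl2 of Nos2-positive macrophages lies above that of members on day 1.

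Arg1 and the chemokine and Thbs1 count tended to sit in the same barcodes. Among macrophages with at least 3 Arg1 UMIs, the share with a sum of at least 3 was 47.8% after PBS, 64.8% on day 1, 87.7% on day 3 and 52.3% on day 7. Among macrophages with 0 Arg1 UMIs it was 12.7%, 29.7%, 43.9% and 19.9%. The barcodes with Arg1 were deeper, with a median of 8039, 10996, 7786.5 and 6714 UMIs, against 6337, 9058, 6458.5 and 5141.5, and the part of depth in these shares was not tested. In T barcodes (at least 3 Cd3 UMIs and fewer than 5 of the 10 macrophage genes), which should lack both, any Arg1 UMI was found in 1.85%, 3.79%, 0.820% and 1.20%, at median depths of 2210, 3419, 3199.5 and 2109 UMIs. Only 1 of the 768 T barcodes reached 3 UMIs of Arg1 together with a sum of 3. T barcodes were defined by few macrophage genes and were shallow, so their low counts say little about background in macrophages. With any Cd3 UMI and no limit on macrophage genes, 128 kept barcodes met the rest of the rule, 102 of them on day 1.

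Members made up 1.47% of the kept barcodes after PBS (119 of 8075, exact Clopper-Pearson 95% interval 1.22 to 1.76%). The share was 3.22% on day 1 (241 of 7484, 2.83 to 3.65%) and 2.14% on day 3 (106 of 4964, 1.75 to 2.58%). By day 7 it was 1.62% (45 of 2771, 1.19 to 2.17%). Day 1 had the highest share, and its interval lies apart from the other 3. The intervals of PBS and day 7 overlap, and the upper end of PBS lies just above the lower end of day 3. Of the macrophage gate alone, members were 1.63%, 4.68%, 3.17% and 2.02%. Depth and the Cd3 bar bear on these shares. With each barcode thinned to 3000 UMIs the shares were 0.471%, 1.12%, 0.833% and 0.701%, from 33, 74, 33 and 14 members. Day 1 was still the highest, but its interval (0.883 to 1.41%) then overlapped those of day 3 (0.574 to 1.17%) and day 7 (0.384 to 1.17%), and not that of PBS (0.325 to 0.661%). With Cd3 allowed at any count, a choice made after seeing the data, the shares were 1.52%, 4.58%, 2.54% and 1.70%.

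**Figure D2:**
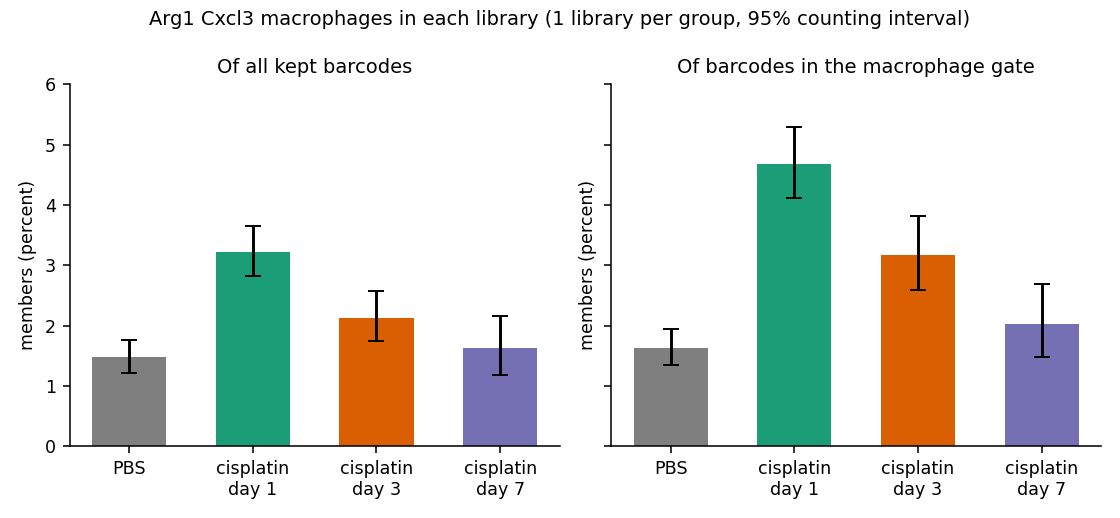
Members as a percent of all kept barcodes (left) and of barcodes in the macrophage gate (right) in the PBS, cisplatin day 1, day 3 and day 7 libraries. Bars give the share in 1 library and lines the exact 95% counting interval, and day 1 stands highest in both panels, at 3.22% and 4.68%.

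The sort selected on CD90 and CD127, and of the matching transcripts members carried little Thy1 and more Il7r. After thinning to 3000 UMIs, Thy1 (CD90) was found in 0.862%, 4.603%, 4.95% and 0% of members (0 of 41 on day 7, which allows up to 8.60%; unthinned 1.68%, 8.71%, 7.55% and 4.44%), against 1.40%, 3.76%, 3.42% and 2.07% of other macrophages. In thinned T barcodes it was found in 47.1%, 53.03%, 52.2% and 81.8%. Il7r (CD127) was found in 10.3%, 18.0%, 27.7% and 9.76% of members (unthinned 18.5%, 34.0%, 46.2% and 11.1%), against 3.90%, 11.1%, 17.8% and 2.55% of other macrophages. The members' share of Il7r was thus the higher one in each library, and both sets stayed below the T barcodes, which had 76.5%, 86.4%, 70.4% and 40.9%. Thinning left out 3, 2, 5 and 4 members, 711, 385, 456 and 536 other macrophages, and 91, 79, 163 and 61 T barcodes.

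Markers of other cell types differed by list. The 8 monocyte genes summed to 1076, 1313, 2012 and 1057 CPM in members, against 494, 717, 1879 and 600.3 CPM in other macrophages, with Chil3 at 0 UMIs after PBS and on day 7. The sum was higher in members in each library but rested largely on F13a1, 1 of the 17 genes called higher further on. F13a1 gave 697 of the 1056 UMIs of the list in PBS members and 2252 of 3593 in day 1 members. Ly6c2 went the other way on day 3, at 228 CPM in members against 356 CPM in other macrophages. The 8 dendritic cell genes summed to 34.6, 9.86, 8.22 and 0 CPM in members, against 6.43, 53.6, 88.5 and 16.9 CPM, with Xcr1, Cd209a and Siglech at 0 in the members of every library. The PBS sum of members was 34 UMIs and rested on few barcodes. Of these UMIs, 21 were of Fscn1 in 1 barcode and 8 were of Ccr7 in 1 barcode. The part of these cell types in the results was not tested. The 12 neutrophil genes summed to 32.6, 320.4, 57.5 and 25.1 CPM in members, against 17.1, 53.03, 51.4 and 24.6 CPM in other macrophages, with Cxcr2 and Ly6g at 0 UMIs in the members of every library. The 13 T and NK genes summed to 38.7, 152, 304 and 40.8 CPM in members, against 30.8, 102, 284 and 78.1 CPM, with Cd3e, Cd3d and Cd3g at 0 by the rule. The 6 stromal genes summed to 24.4, 358, 31.7 and 62.7 CPM in members, against 59.6, 170.1, 74.5 and 559.9 CPM. The day 1 neutrophil and stromal sums rested on few barcodes: 1 day 1 member held 317 of the 318 Ltf UMIs, and 1 held 203 of the 220 Col1a1 UMIs.

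Beyond the rule's genes, the members stood apart from other macrophages in a short list of genes of hypoxia, lactate export, chemokine and matrix biology. Ratios of CPM were formed within the PBS, day 1 and day 3 libraries, each with over 50 members, over the 6529 genes with at least 10 UMIs expected in each pool. Of these, 17 genes (0.26%) were at least 2-fold higher in members in all 3 libraries, and 18 (0.276%) were at least 2-fold lower. Both sets are small beside the number of genes compared, and TMM scaling turned the counts to 13 higher and 25 lower. The members were chosen by transcripts of the same barcodes, so these counts describe the set and test nothing. When only barcodes of 5000 to 15000 UMIs were compared, 15 of the 17 higher genes were called again and 8 of the 18 lower ones.

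Of the 17 higher genes, the chemokine Ccl6 had the largest log2 ratio nearest to 0. Ccl6 (chromosome 11, 83587882 to 83593087, minus strand), a ligand of CCR1 in mice, stood at 302, 589, 646 and 982 CPM in members, against 36.1, 126, 125 and 99.7 CPM in other macrophages. Members were higher in each library, and their lowest level lies above the highest of other macrophages. The log2 ratios were 3.06 after PBS, with a 95% interval of 2.88 to 3.24, then 2.22 on day 1 (interval 2.14 to 2.30), 2.37 on day 3 (interval 2.24 to 2.50) and 3.30 on day 7 (interval 3.12 to 3.48). Ccl9, its neighbour and another CCR1 ligand, stood at 956, 1131, 1441 and 1669 CPM in members, against 387, 483, 519 and 379 CPM. Pf4, platelet factor 4, stood at 4684, 7987, 7553 and 6541 CPM in members, against 2297, 3291, 1786 and 2368 CPM. The levels of Ccl9 and Pf4 did not overlap between the sets either.

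These 3 genes were the only ones of 14 compared members of a list of other chemokines to be at least 2-fold higher, and 0 were lower. The list's median over the 3 libraries was a mean log2 ratio of -0.40, against -0.07 over all 6529 genes. The inflammatory chemokines Ccl3 and Ccl4 had log2 ratios of -0.95 and -0.60 after PBS, and Cxcl16 of -0.37. Ccl2 and Ccl7, which draw monocytes through CCR2, had ratios between 0.03 and 0.74.

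Among chemokines for neutrophils only Cxcl2 could be compared beyond the rule. Cxcl2 stood at 6422, 6246, 8425 and 4529.8 CPM in members, against 2303, 2709.8, 5134 and 1499 CPM in other macrophages. The log2 ratio was 1.48 after PBS, 1.20 on day 1 and 0.71 on day 3, so Cxcl2 was not called, its gap being under 2-fold on day 3. Ppbp, which encodes another CXCR2 ligand, had too few UMIs for the comparison. It stood at 57.0, 54.1, 86.9 and 138 CPM in members, against 4.34, 9.79, 4.23 and 4.75 CPM. These counts came from 8, 31, 10 and 5 members, with up to 21, 38, 23 and 23 UMIs in 1 barcode, so they describe a minority of the set.

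Genes of low oxygen and glycolysis were higher in members as a group. Hilpda (chromosome 6, 29272488 to 29275446, plus strand) stood at 380.0, 388, 614 and 568 CPM in members, against 97.3, 95.4, 155 and 92.6 CPM in other macrophages. Its log2 ratios were 1.97 after PBS (95% interval 1.81 to 2.12), 2.02 on day 1 (interval 1.93 to 2.12), 1.98 on day 3 (interval 1.85 to 2.12) and 2.62 on day 7 (interval 2.38 to 2.84). The gap was thus nearly the same size in 3 libraries and wider on day 7. Vegfa (chromosome 17, 46016993 to 46032369, minus strand), the main growth factor for blood vessels, stood at 327, 415, 562 and 665 CPM in members, against 78.5, 128, 236 and 145 CPM. Bnip3 (chromosome 7, 138890836 to 138909519, minus strand) stood at 228, 155, 170.2 and 301 CPM in members, against 72.0, 58.1, 51.2 and 92.7 CPM. In both genes the members were higher in each library, and the ratio of Vegfa narrowed to a log2 of 1.25 on day 3, where other macrophages had their highest level.

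Of 29 listed glycolysis and hypoxia genes 25 could be compared. Of these 5 were at least 2-fold higher in members in all 3 libraries, namely Hilpda, Vegfa, Bnip3, Slc16a3 and Ero1l, an oxidase that forms disulfide bonds in the endoplasmic reticulum, and 0 were lower. The ratio was above 0 in each of the 3 libraries for 23 of the 25, against 1097 of all 6529 genes (16.8%), and the list median was 0.74 against -0.07. Slc16a3 stood at 253, 182, 295 and 160.0 CPM in members, against 77.5, 79.5, 115 and 65.7 CPM. The glucose transporter Slc2a1 stood at 125, 146, 171 and 87.8 CPM in members, against 47.9, 62.7, 88.7 and 28.5 CPM, with log2 ratios of 1.39, 1.22 and 0.95 in the first 3. Genes of the glycolytic chain were higher by less. Pgk1, phosphoglycerate kinase, had ratios of 1.23, 0.96 and 1.04, and Ldha, which makes lactate, had 0.74, 0.51 and 0.71. Pfkp and Bhlhe40 were the 2 genes with a ratio below 0 in any library, at -0.09 and -0.26 on day 3. The median over 20 of these genes was 0.81 on day 7.

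**Figure D3:**
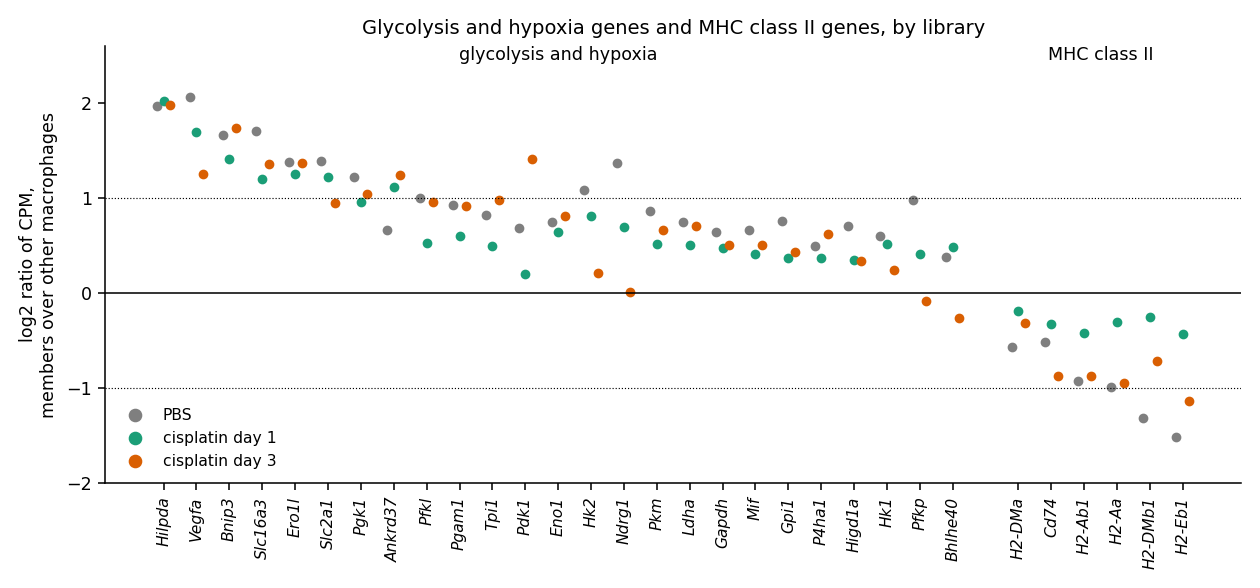
Log2 ratio of CPM, members over other macrophages, for the 25 glycolysis and hypoxia genes (left) and the 6 MHC class II genes (right) that could be compared, 1 point per library. Dotted lines mark a 2-fold difference, and the points lie above 0 in all 3 libraries for 23 of the 25 genes on the left and below 0 in all 3 for the 6 on the right.

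Other called genes act at the cell surface and in the matrix. Pdpn, podoplanin, which binds CLEC-2 on platelets, stood at 729, 689.8, 683 and 1801 CPM in members, against 269.6, 273, 269.7 and 584 CPM in other macrophages. Ctsl, the lysosomal protease cathepsin L, stood at 3642, 3513, 4336 and 3175 CPM in members, against 1418, 1639, 1343 and 934 CPM. For both genes the lowest member level lay above the highest level of other macrophages, and the gap of Pdpn was steady, at log2 ratios of 1.44, 1.33, 1.34 and 1.63. Fn1, fibronectin, stood at 519.5, 323, 139.7 and 565 CPM in members, against 249, 125, 52.0 and 212 CPM. F13a1, the factor XIII subunit that crosslinks fibrin and fibronectin, stood at 710.0, 823, 399 and 543 CPM, against 281, 399, 116 and 212 CPM. Fn1 and F13a1 were both lowest on day 3, in members and in other macrophages alike. Adam8, a surface metalloproteinase, had log2 ratios of 1.56, 1.14 and 1.12, and Rgcc, a regulator of the cell cycle, had 2.12, 1.59 and 1.19. The C-type lectin Clec4d, which pairs with Mincle, stood at 539, 472, 512 and 379.6 CPM, against 150.0, 204, 221 and 109 CPM. Mxi1, a MYC antagonist, and Gab1, a signalling adaptor, complete the 17, and they are named for completeness and not by the rule for named genes.

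Within the matrix and protease list, 13 of 25 genes could be compared, with 2 higher (Fn1 and Adam8) and 1 lower (Mmp9, a gelatinase), and a median of 0.23. Of 12 compared thrombospondin receptors and integrins 0 were called in either direction, 6 were above 0 in all 3 libraries and 2 below, and the median was 0.14. Over all 6529 genes 16.8% were above 0 in all 3 libraries and 31.4% below, with 0.26% called higher and 0.276% lower. Cd47 had log2 ratios of 0.17, 0.07 and 0.14. Cd36, which had too few UMIs for the comparison, stood at 58.1, 33.2, 39.9 and 40.8 CPM in members, from 57, 91, 34 and 13 UMIs, against 9.97, 8.96, 6.21 and 5.14 CPM in other macrophages.

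**Figure D4:**
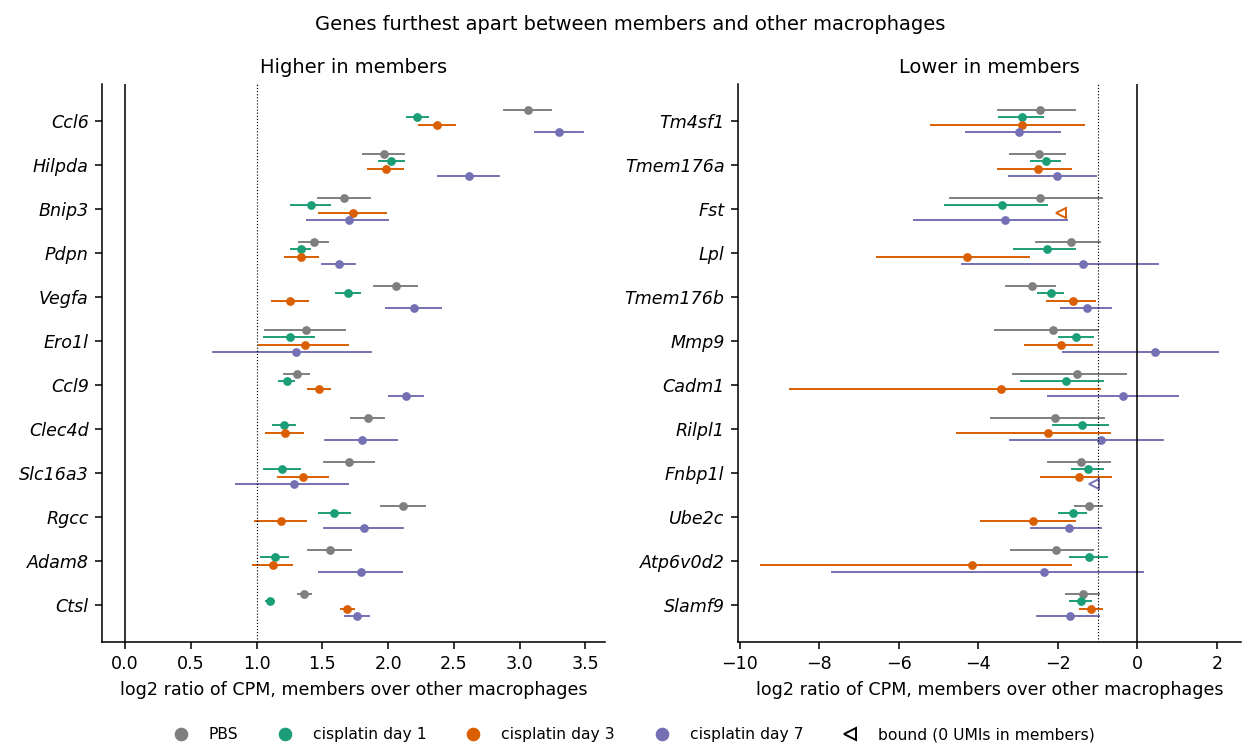
The 12 genes furthest above and the 12 furthest below other macrophages by the log2 ratio nearest to 0 in the PBS, day 1 and day 3 libraries. Points give the log2 ratio of CPM, members over other macrophages, lines its exact 95% counting interval, open triangles a bound where members had 0 UMIs, and dotted lines 2-fold. Ccl6 lies between 2.22 and 3.30 in the 4 libraries, and the intervals of the lower genes are wide because members held few of their UMIs.

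The inflammatory genes Il1b and Ptgs2 were higher in members by a gap that was narrowest on day 3. Il1b stood at 558, 1047, 2590.5 and 834 CPM in members, against 300.2, 642, 1850.0 and 372 CPM in other macrophages. Ptgs2, the cyclooxygenase that starts prostaglandin synthesis, stood at 167, 308, 585 and 245 CPM in members, against 49.3, 155, 329.7 and 77.9 CPM. Both were highest on day 3 in each set, and members lay above other macrophages in the same library throughout. The log2 ratios of Ptgs2 were 1.76, 0.99, 0.83 and 1.65, and those of Il1b 0.90, 0.71, 0.49 and 1.16. No gene of the IL-1 list was called in 9 compared (median 0.19), and none in 21 genes of NF-kB and its feedback (median -0.03), where Nfkbia had 0.74, 0.59 and 0.05. Of 21 immediate-early genes 0 were called (median 0.21), and Klf4 and Ier3 were among the 10 above 0 in all 3 libraries, with ratios of 1.02, 0.90 and 0.65 for Klf4. Over all 6529 genes 16.8% were above 0 in all 3 libraries. Only 0.26% were called higher and 0.276% lower, so 0 calls says little about these 3 lists.

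Of 12 other compared genes of arginine and polyamine metabolism 0 were called in either direction, and their median was -0.10. Over all 6529 genes 0.26% were called higher and 0.276% lower, so 0 of 12 says little about this list. Odc1, which turns ornithine into the polyamine putrescine, stood at 623, 573, 624 and 452 CPM in members, against 282, 285, 423 and 208 CPM in other macrophages, log2 ratios of 1.15, 1.01 and 0.56 in the first 3. Srm, which makes spermidine in the next step, had -0.08, -0.64 and -1.33. Of the genes of alternative activation, a list that often includes Arg1, 1 of 9 was called higher (Fn1), 5 were above 0 in all 3 libraries and 0 below, and the median was 0.28, with 0.54 on day 3 and 0.82 on day 7. Of all genes compared, 16.8% were above 0 in all 3 libraries and 31.4% below. The mannose receptor Mrc1 stood at 788, 1033, 573 and 489 CPM in members, against 736, 764, 260.2 and 335 CPM. Retnla, a classical companion of Arg1, had too few UMIs for the comparison.

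Genes of antigen presentation by MHC class II had lower summed levels in members, by less than 2-fold in at least 1 library each. H2-Ab1 stood at 122, 594, 1251 and 480.0 CPM in members, against 233, 795, 2290.1 and 689.8 CPM in other macrophages and 1000.1, 3779, 4348 and 2891 CPM in Nos2-positive macrophages. Members held the lowest summed level of the 3 sets in each library. The share of barcodes with an H2-Ab1 UMI, after thinning to 3000 UMIs, did not follow this order, at 22.4%, 38.9%, 59.4% and 26.8% of members (unthinned 32.8%, 70.1%, 75.5% and 40.0%), against 18.8%, 38.8%, 68.0% and 32.7% of other macrophages (unthinned 30.5%, 64.2%, 80.6% and 45.7%). T barcodes, which should lack the gene, had 23.5%, 36.4%, 36.0% and 27.3%, from 17, 132, 203 and 22 barcodes left after thinning. Their intervals were wide after PBS (6.81 to 49.9%) and on day 7 (10.7 to 50.2%). The part of background in the shares of members was not tested. All 6 compared class II genes had a ratio below 0 in each of PBS, day 1 and day 3, against 2047 of 6529 genes, and 0 of 6 were called. The list median was -0.74, with -0.96 after PBS, -0.32 on day 1, -0.87 on day 3 and -0.38 on day 7. Other macrophages include the Nos2-positive ones, which the rule bars from the members, at 14, 75, 135 and 6 barcodes. On day 3 these held 4880 of the 52012 H2-Ab1 UMIs of other macrophages, and after PBS 100 of 12136.

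Cell cycle genes were lower in members too. Of 12 compared G2M genes 11 were below 0 in all 3 libraries and 1 was called, Ube2c, which drives exit from mitosis, and the median was -1.18. Of 17 S phase genes 14 were below 0 in all 3 and 1 was called, Uhrf1, which copies DNA methylation, with a median of -0.66. Over all 6529 genes 2047 (31.4%) were below 0 in all 3 libraries, and 0.276% were called lower. Mki67 stood at 76.4, 15.7, 2.35 and 12.5 CPM in members, against 122, 41.2, 25.01 and 28.1 CPM in other macrophages. Members held 75, 43, 2 and 4 UMIs of Mki67, so the later values rest on very few counts.

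The other lower genes formed no single list. Tmem176a and Tmem176b, neighbouring genes for ion channels of intracellular vesicles, stood at 19.4, 23.02, 12.9 and 25.1 CPM and at 23.4, 32.9, 29.3 and 72.2 CPM in members. In other macrophages Tmem176a stood at 107, 113, 72.9 and 102 CPM, and Tmem176b at 147, 148, 90.7 and 173 CPM. Both were lower in members in each library, and Tmem176a by log2 ratios of -2.47, -2.29, -2.50 and -2.02. Tm4sf1, a membrane protein, stood at 10.2, 10.6, 3.52 and 21.96 CPM in members, against 55.4, 79.0, 26.2 and 173 CPM. Lpl, the lipase that takes fatty acids from lipoproteins, stood at 14.3, 5.85, 3.52 and 6.27 CPM, against 45.7, 28.4, 68.2 and 16.1 CPM. Fst, follistatin, which binds activin, had 3, 6, 0 and 3 UMIs in members, and its log2 ratio on day 3 is a bound of -1.93 set by a floor of 3 UMIs. On day 3, 414 of the 596 Tm4sf1 UMIs and 274 of the 304 Fst UMIs of other macrophages lay in the 135 Nos2-positive barcodes, so these day 3 ratios rest largely on that set. Slamf9, a receptor of the SLAM family, was lower by log2 ratios of -1.37, -1.42 and -1.16. The osteoclast list had 2 of 6 compared genes lower, Mmp9 and Atp6v0d2, a proton pump subunit, and a median of -1.56, though Ctsk, cathepsin K, had 0.02 on day 1. Genes of a macrophage type marked by Cx3cr1, Fcrls and Hpgd had a median of -0.53 with 0 of 7 called.

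The day 7 library, with 45 members, was left out of the calls and gives a further look at the same genes. Of the 17 higher genes 16 had enough UMIs, and all 16 were at least 2-fold higher on day 7, where 66 of 3860 genes were. Of the 18 lower genes 9 had enough UMIs, and 8 were at least 2-fold lower, where 160 of 3860 were. Gab1, the higher gene with too few UMIs, had a day 7 ratio of 0.77 (-0.37 to 1.73) from 9 UMIs, and Mmp9 stood at 0.44 (-1.86 to 2.04) from 3 UMIs in 1 member. The day 7 members were chosen by the same rule, so this too is a description.

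The levels of these genes were also read in 2 sets of macrophages close to the members. The first holds 327 macrophages with at least 3 Arg1 UMIs and a sum under 3, the second 230 Nos2-positive macrophages, with 133, 134, 18 and 42 and with 14, 75, 135 and 6 barcodes in the 4 libraries. Ctsl stood at 3642, 3513, 4336 and 3175 CPM in members and at 2874, 2877, 4110.3 and 1510.4 CPM in the Arg1 set, with 1290.2, 1338, 1318 and 837 CPM in the Nos2 set. Pf4 stood at 3749.6, 6183, 7476 and 4516 CPM in the Arg1 set and at 1860.3, 1802, 1162 and 1103 CPM in the Nos2 set. For these 2 genes the Arg1 set lay between other macrophages and members in all 4 libraries, and the Nos2 set was below the members. Vegfa stood at 113, 93.7, 81.9 and 237 CPM in the Arg1 set and at 180.0, 382, 379.6 and 418 CPM in the Nos2 set. Il1b stood at 134, 164, 239 and 108 CPM in the Arg1 set and at 880.1, 3798, 3239 and 1217 CPM in the Nos2 set, the highest of all sets. So Vegfa and Il1b were lower in the Arg1 set than in the Nos2 set in each library, and Ctsl and Pf4 were higher. Hilpda, at 231, 97.7, 116 and 218 CPM in the Arg1 set, was close to other macrophages on day 1 and below them on day 3. The sets were cut by their own transcripts and differ in size, so no difference between them was tested.

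Within the members, the genes most like Arg1 were few and the likeness weak. Members were thinned to 3000 UMIs, and Spearman's rho with Arg1 was averaged over 116 PBS, 239 day 1 and 101 day 3 members for 1507 genes. The highest means were 0.26 for Bnip3 and for Clec4d, 0.25 for Pf4, 0.24 for Ctsl and 0.22 for Thbs1 and for Cxcl2, followed by Pkm, Pgk1, Ccl6 and Ccl9. Several means were carried by the PBS members: rho was 0.442, 0.143 and 0.0702 for Thbs1 after PBS and on days 1 and 3, 0.442, 0.207 and 0.0674 for Ctsl, and 0.368, 0.139 and 0.144 for Cxcl2, while Clec4d had 0.258, 0.227 and 0.282. Thbs1 is also a gene of the rule. Cells of a library share its preparation and all had Arg1 chosen at 3 UMIs or more, so these values are a description.

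After cisplatin, members on day 1 and day 3 were compared with members after PBS, with values of other macrophages beside most of them. Both comparisons use the PBS members, so an unusual PBS value enters both, and day 7 was not compared because it has under 50 members. On day 1, 381 of 7125 genes (5.35%) were at least 2-fold higher in members and 113 (1.59%) at least 2-fold lower. Over the same genes other macrophages had 149 (2.09%) higher and 47 (0.66%) lower. On day 3, 624 of 6692 genes (9.32%) were higher and 345 (5.16%) lower in members, and 487 (7.28%) and 201 (3%) in other macrophages. The member pools are far smaller than the pools of other macrophages, and the difference in these counts between the sets was not tested.

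Interferon-induced genes were higher on both days. On day 3 all 39 compared genes of a type I interferon list were at least 2-fold higher in members, against 9.32% of all genes, with a median log2 ratio of 3.01. In other macrophages 38 of these 39 were, with a median of 2.52. Rsad2, the antiviral enzyme viperin, stood at 117 CPM on day 1 and 505 CPM on day 3 in members, against 12.2 CPM after PBS. Isg15, a ubiquitin-like protein, stood at 124 CPM on day 1 and 906 CPM on day 3, against 73.3 CPM after PBS. The lymphocyte and myeloid surface protein gene Ly6a stood at 196 CPM on day 1 and 1691 CPM on day 3, against 92.7 CPM after PBS. Day 3 thus held the highest levels of all 3, and on day 7 they were at 28.2, 194 and 173 CPM. The log2 ratios of day 3 over PBS were 5.37 for Rsad2, 3.63 for Isg15 and 4.19 for Ly6a in members, beside 3.40, 3.698 and 3.72 in other macrophages. On day 1 the list was called in 17 of 34 genes in members, with a median of 0.98, and in 2 of the same 34 in other macrophages, with a median of 0.35. Rsad2 had a day 1 log2 ratio in members of 3.01 without its highest barcodes, and PBS members held 12 of its UMIs. PBS members were also below PBS other macrophages for this list, with a median log2 ratio of -0.63, so the day 1 and day 3 ratios of members start from a lower level, and the difference between the sets was not tested.

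Some chemokines were higher too. Ccl5, which draws T cells, stood at 214 CPM on day 1 and 748 CPM on day 3 in members, against 8.15 CPM after PBS, log2 ratios of 4.72 (3.73 to 5.94) and 6.52 (5.53 to 7.74), where other macrophages had 1.68 and 3.87. It was found in 99 of 241 members on day 1 and in 64 of 106 on day 3, against 8 of 119 after PBS. Ccl8, which draws monocytes, stood at 1080.0 CPM on day 1 and 1879 CPM on day 3, against 124 CPM after PBS, log2 ratios of 3.12 and 3.92 beside 1.06 and 1.08 in other macrophages. Without the highest barcode of each pool Ccl8 was at 3.59 and 4.40. Ccl5 is also a T and NK cell transcript, and the T and NK list summed to 152 CPM on day 1 and 304 CPM on day 3 in members, against 38.7 CPM after PBS. Gzma and Gzmb, granzymes of those cells, had 159 and 48 UMIs on day 1 and 27 and 49 UMIs on day 3 in members, against 0 after PBS, so their ratios are bounds. The part of T and NK transcripts in the values of Ccl5 was not tested. Cxcl10, which also draws T cells, stood at 149.8 CPM on day 1 and 1083 CPM on day 3, against 67.2 CPM after PBS, and in other macrophages at 245 and 1290.0 CPM, against 252 CPM. Of the list of other chemokines 4 of 14 were higher and 1 lower on day 1 (median 0.56), and 9 of 13 were higher and 0 lower on day 3 (median 1.35). Ccl2 was under 2-fold on both days, with log2 ratios of 0.20 and 0.82.

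MHC genes were higher as well. H2-Eb1 stood at 484 CPM on day 1 and 871 CPM on day 3 in members, against 55.0 CPM after PBS, log2 ratios of 3.14 (2.74 to 3.56) and 3.98, where other macrophages had 2.05 and 3.60. Class II genes were higher in 5 of 6 on day 1 (median 2.17, other macrophages 1.82) and in 6 of 6 on day 3 (median 3.09, other macrophages 3.25). H2-Eb1 was found in 129 of 241 members on day 1 without thinning, so its UMIs were not confined to a few barcodes. Day 1 members were deeper than PBS members, with a median of 10215 against 7365 UMIs. After thinning, the class II gene H2-Ab1 was found in 38.9% of day 1 members and in 36.4% of day 1 T barcodes. The part of depth and background in the spread of H2-Eb1 was not tested. Class I and peptide loading genes were higher in 3 of 15 on day 1 and 13 of 15 on day 3, with medians of 0.53 and 1.75. Ly6c2, a marker of fresh monocytes, stood at 15.3 CPM on day 1 and 228 CPM on day 3, against 3.06 CPM after PBS, from 42, 194 and 3 UMIs. In other macrophages it stood at 6.97 CPM and 356 CPM, against 2.92 CPM.

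**Figure D5:**
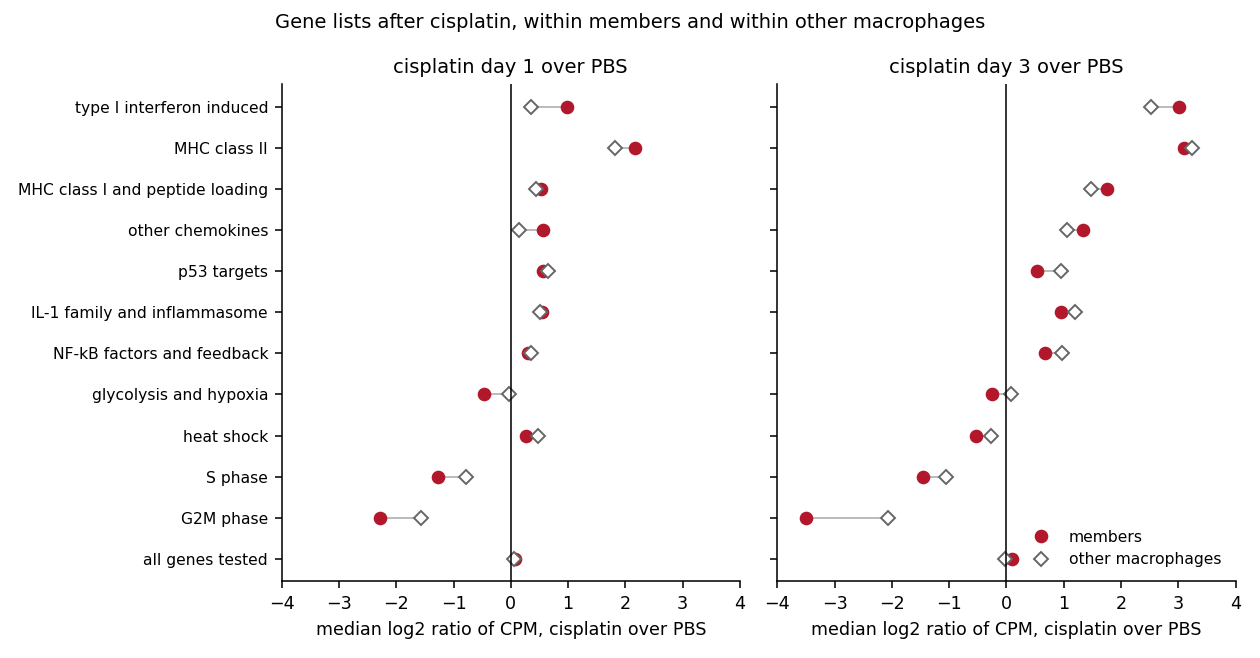
Median log2 ratio of CPM of gene lists, cisplatin day 1 over PBS (left) and day 3 over PBS (right), within members (filled circles) and within other macrophages (open diamonds), joined by a line for each list. The type I interferon list is at 3.01 in members and 2.52 in other macrophages on day 3, the G2M list at -3.50 and -2.07, and all genes compared lie close to 0.

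Proliferation genes were lower after cisplatin. Mki67 stood at 15.7 CPM on day 1 and 2.35 CPM on day 3 in members, against 76.4 CPM after PBS, log2 ratios of -2.28 (-2.86 to -1.72) and -5.02 (-8.10 to -3.12), where other macrophages had -1.57 and -2.29. Birc5, which encodes the mitotic protein survivin, had 52 UMIs on day 1 and 1 UMI on day 3, against 99 after PBS, log2 ratios of -2.41 and -6.42 beside -2.10 and -2.28 in other macrophages. Of 17 compared G2M genes 14 were lower on each day, with medians of -2.28 and -3.50 in members and -1.57 and -2.07 in other macrophages. Of the S phase genes 10 of 16 were lower on day 1 and 12 of 17 on day 3. After PBS, 20 of 119 members held an Mki67 UMI, with up to 15 UMIs in 1 barcode, against 22 of 241 on day 1 and 2 of 106 on day 3, so the change rests on a minority of members. Cdkn1a, the p53 target that halts the cycle, stood at 1015 CPM on day 1 and 1455 CPM on day 3, against 583 CPM after PBS, and in other macrophages at 697 and 1157 CPM, against 286 CPM. Mdm2, the p53 brake, stood at 187 and 171 CPM in members, against 104 CPM after PBS, and in other macrophages at 164 and 271 CPM, against 83.2 CPM. Of the p53 list 3 of 18 genes were higher on day 1 (median 0.56) and 5 of 15 on day 3 (median 0.53), with medians of 0.65 and 0.96 in other macrophages.

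Glycolysis and hypoxia genes, which set the members apart within a library, mostly stayed within 2-fold of their PBS level. They had medians of -0.47 on day 1 and -0.25 on day 3 in members, with 1 of 27 higher on day 1, 0 of 27 on day 3 and 0 lower on either day. The medians of this list were -0.03 and 0.07 in other macrophages, and those of all genes compared were 0.08 and 0.09 in members. Hilpda had log2 ratios of 0.03 on day 1 and 0.69 on day 3, beside -0.03 and 0.68 in other macrophages, and Bnip3 of -0.56 and -0.42, beside -0.31 and -0.49. Ccl6 was 0.97 and 1.10, and other macrophages had 1.81 and 1.79. Fn1 had -0.69 and -1.90, beside -0.99 and -2.26 in other macrophages, and Spp1, the secreted phosphoprotein osteopontin, had -1.10 and -2.21, beside -0.42 and -1.78. Spp1 stood at 2024 CPM on day 1 and 933 CPM on day 3 in members, against 4326 CPM after PBS, and at 7833 CPM on day 7.

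Several genes with large day 1 ratios had most of their UMIs in 1 barcode each. Ltf, S100a9 and Ngp are neutrophil genes and Col1a1 and Col1a2 are collagen genes of fibroblasts. Without the highest barcode of each pool, day 1 members held 1 UMI of Ltf, 18 of S100a9, 6 of Ngp, 17 of Col1a1 and 19 of Col1a2, against 318, 130, 105, 220 and 195 with it. Chil3, a monocyte chitinase-like gene, had 13 UMIs without that barcode and 71 with it on day 1, and 65 and 96 on day 3, where 13 of 106 members held it. Without that barcode the day 1 log2 ratio was 2.77 for Col1a2 and 0.61 for Col1a1, and a bound of 1.11 for S100a9, which had 5.29 in other macrophages, and the day 3 ratio of Chil3 was a bound of 4.64.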

How the data were processed

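The values used are whole-number UMI counts per gene and barcode, deposited by the authors as filtered matrices for each library. Cell Ranger 3.1.0, Seurat 3.1.2 and the mm10 build are named in the submitters' processing notes, with no role given for Seurat. From these counts, barcodes were kept from 500 genes upwards and with mitochondrial UMIs of 10% or less, the rule for the members was applied to raw counts, and UMIs were summed per library and set of barcodes. CPM were computed here as UMIs per 1000000 UMIs of a pool, and a gene was compared where at least 10 UMIs were expected in each pool. The genes that the rule uses were left out of the comparisons. The members and the 31 gene lists were chosen with earlier results of these data known.

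A gene was called at a 2-fold difference, within the members against other macrophages in the same direction in the PBS, day 1 and day 3 libraries. Shares have exact Clopper-Pearson 95% intervals and ratios exact conditional binomial ones. Where a pool held 0 UMIs, the ratio is a bound computed with 3 UMIs in that pool. Intervals and floors cover counting error only. Named genes were the 12 in each direction with the largest log2 ratio nearest to 0 over the libraries, the 10 in each direction for each day by the interval bound nearest to no change, up to 4 of each list by size, the genes of the rule and a set of well-known macrophage genes. Cd47, Mxi1, Gab1, Ccl3, Ccl4, Cxcl16, Pfkp, Bhlhe40 and Retnla fall outside this rule and were chosen after their values were seen. Doublets were scored with Scrublet in scanpy 1.11.5, which called 0 barcodes at its automatic threshold and so did not work, so doublets stayed in and the highest scores (0.8% per 1000 barcodes) were removed as an alternative. TMM factors came from edgeR 4.0.16 and size factors from DESeq2 1.42.0, as alternatives to total UMIs. Python 3.11.15, numpy 2.4.6, scipy 1.17.1 and pandas 2.3.3 were used. Only the CPM ratio and its interval were tested on simulated data, as pools with known fold changes. Those pools held counting error alone, so they do not cover genes with most UMIs in 1 barcode.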

Additional observations from a re-analysis of the deposited data

Results flagged for a closer look

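Fscn1, which encodes the actin-bundling protein fascin, moved in opposite directions on day 3 in members and in other macrophages. In members its log2 ratio of day 3 over PBS was -3.26, from 2 UMIs on day 3 and 22 UMIs after PBS, of which 21 were in 1 barcode. In other macrophages it was 3.13, at 26.2 CPM on day 3 against 3.00 CPM after PBS. The difference was not tested, and the value in members rests on that barcode.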

How the results depend on the processing

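No paired analysis was possible because each group has 1 library. The member share moved with depth and with the rule: with Arg1 at 5 UMIs or more it was 0.854% after PBS, 2.20% on day 1, 1.25% on day 3 and 1.01% on day 7, with the summed count at 5 or more it was 1.09% after PBS, 2.74% on day 1, 1.83% on day 3 and 1.08% on day 7, and after thinning to 3000 UMIs it was 0.471%, 1.12%, 0.833% and 0.701%. Of the macrophage gate it was 4.68% on day 1 and 3.17% on day 3. With up to 20% mitochondrial UMIs it was 2.76% on day 1, and with Cd3 at any count, chosen after seeing the data, 4.58% on day 1. Day 1 was highest under each of these. Without the filter on low counts 840 genes were higher and 58 lower in members than in other macrophages. On the days, the counts without that filter were 1074 higher and 670 lower on day 1, and 1187 and 963 on day 3. Leaving out a library in turn gave 25 to 36 higher and 36 to 58 lower genes, since fewer libraries must then share the direction: 27 and 50 without PBS, 25 and 36 without day 1, and 36 and 58 without day 3. Removing the highest barcode of each gene, chosen after seeing the data, gave 30 lower genes, 15 of them among the 18, and 18 higher, 17 of them the same. Scaling by TMM gave 13 higher and 25 lower genes, by DESeq2 22 and 16. TMM shifted all ratios of members to other macrophages on day 3 by -0.16 and DESeq2 those after PBS by 0.10. TMM moved the 93 list medians by -0.25 to 0.05 and DESeq2 by -0.13 to 0.23, and neither reversed any. Removing the highest doublet scores, 23 of the 241 day 1 members among them, gave 20 higher and 25 lower genes, with the 17 and the 18 among them. The 45 day 7 members and the 106 day 3 members limit the precision of every low gene.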
